A study of Homo sapiens with 4 samples.

Results

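miR-197 was described through its pair of mature strands, miR-197-3p and miR-197-5p, which are 2 of the 1308 human miRNA entries measured on each of 4 microarrays. Both were picked by name, with the opposite direction of their change after camptothecin already known from these arrays. Their change is therefore given as a description without a test, and other hairpins with both strands measured serve as the background. The arrays had 1 colour (Cy5) and held small RNA of exosomes, the small vesicles that cells release, collected from medium of Hep3B cells. Hep3B is an established human hepatocellular carcinoma line that lacks the tumour suppressor p53. All cells were kept for 2 days in medium cleared of other exosomes. For 2 arrays this medium contained 10 µM camptothecin, which traps topoisomerase I on DNA and so leads to strand breaks, and for the other 2 arrays the labels give no treatment. The column headers of the authors' ratios name the comparator DMSO, and the sources used here do not settle which of these holds. All 4 arrays come from 1 cell line, and nothing in the labels tells whether replicate arrays trace back to different cultures. Every p-value below therefore measures only the spread between these arrays, which may be technical and is made smaller by the equal sets of sorted values within each group. Fewer vesicles and less of a strand per vesicle cannot be told apart on such arrays.

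A miRNA gene is transcribed as a longer RNA whose hairpin is cut out in the nucleus and trimmed in the cytoplasm to a short duplex. Either strand of this duplex, the 5p strand from the front of the hairpin or the 3p strand from its back, can be loaded into an Argonaute protein and then represses mRNAs that pair with its seed. miR-197-3p is the strand of this hairpin that most work describes. It has been reported to repress TUSC2, a tumour suppressor of lung cancer, to act on the immune checkpoint ligand PD-L1 (gene CD274) through the kinase subunit CKS1B and STAT3, and to promote invasion of hepatocellular carcinoma cells.

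The hairpin is shown because both strands come from it. In RefSeq it spans chr1:109598893-109598967 on the plus strand (GRCh38.p14), 75 bases that lie inside the annotated span of GNAI3, which encodes an inhibitory G protein subunit. The capitals mark the 5p strand and then the 3p strand.
MIR197 hairpin: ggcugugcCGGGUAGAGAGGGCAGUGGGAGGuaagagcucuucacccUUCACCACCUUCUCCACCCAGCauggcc
The mature strands of 22 and 23 bases lie at chr1:109598940-109598961 for 3p and chr1:109598901-109598923 for 5p. They are shown with the seed, bases 2 to 8, in capitals.
miR-197-3p: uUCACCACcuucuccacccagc
miR-197-5p: cGGGUAGAgagggcagugggagg
The strands differ in base composition. miR-197-3p has 12 cytosines, 5 uracils and 1 guanine (54.5% cytosine, 4.55% guanine), and miR-197-5p has 14 guanines and 2 cytosines (60.9% guanine, 8.70% cytosine). No other of the 1105 entries matched to a RefSeq mature sequence had the seed of miR-197-3p. The seed of miR-197-5p recurred in 1 entry, miR-3132, which read 339 and 322 after camptothecin and 327 and 318 without it. miR-3132 did not pass the test between groups (log2 fold change 0.036 ± 0.052 SE; limma adjusted p = 0.582), and its groups overlapped.

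miR-197-3p had an intensity of 3961 on both camptothecin arrays and of 2331 on both untreated arrays. Intensities are deposited values in arbitrary units. The treated values lay above the untreated values, a 1.70-fold higher level (log2 fold change 0.77, camptothecin over untreated). The equal values within each group mean that the probe held an identical place on both arrays of a group, since these arrays share all 1308 sorted values with their partner (tolerance 1e-06). Equal values were found for 38 entries on the camptothecin arrays and for 45 on the untreated arrays. For 3 entries this was so in both groups, miR-197-3p, miR-4656 and miR-1273g-3p. The spread of miR-197-3p between replicates is thus unknown rather than 0, and the array number limits the precision.

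miR-197-5p read 713 and 658 after camptothecin and 807 and 821 without it, or 686 ± 38.5 against 814 ± 9.67 (SD, n = 2). Both treated arrays lay below both untreated arrays, with a 1.19-fold lower level (log2 fold change -0.25). The size of this difference depended on the scaling of the arrays. The log2 fold change was -0.080 with all 4 arrays quantile normalized together, -0.12 with arrays scaled by the 75th percentile of the brighter entries (median level and above), and -0.16 after a normexp background correction. It was -0.35 with each array centred on its median. In each of these settings miR-197-3p stayed higher (0.66 to 0.92) and miR-197-5p lower. The median log2 fold change of all entries shifted as well, from 0.11 as deposited to -0.0092, 0.24, 0.043 and 0.0067 in that order. Relative to this median, miR-197-5p lay at -0.36 as deposited and at -0.071 under quantile normalization, and miR-197-3p at 0.65 and 0.85.

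The ratio of the strands within an array is unaffected by any factor common to that array. The 3p intensity was 5.56 and 6.02 times the 5p intensity on the camptothecin arrays and 2.89 and 2.84 times on the untreated arrays. The groups did not overlap, and the ratio was 2.02-fold higher after camptothecin (change of log2 ratio 1.01 ± 0.085 SE). Because the 3p values are equal within each group, this SE draws only on the 5p spread and, through limma, on the other hairpins. It may be too small. Under quantile normalization of all 4 arrays the change was 0.92, and after normexp 1.08. Probes differ in how they capture and label their target, so these ratios give a change between groups and not the numbers of molecules of each strand.

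**Figure D1:**
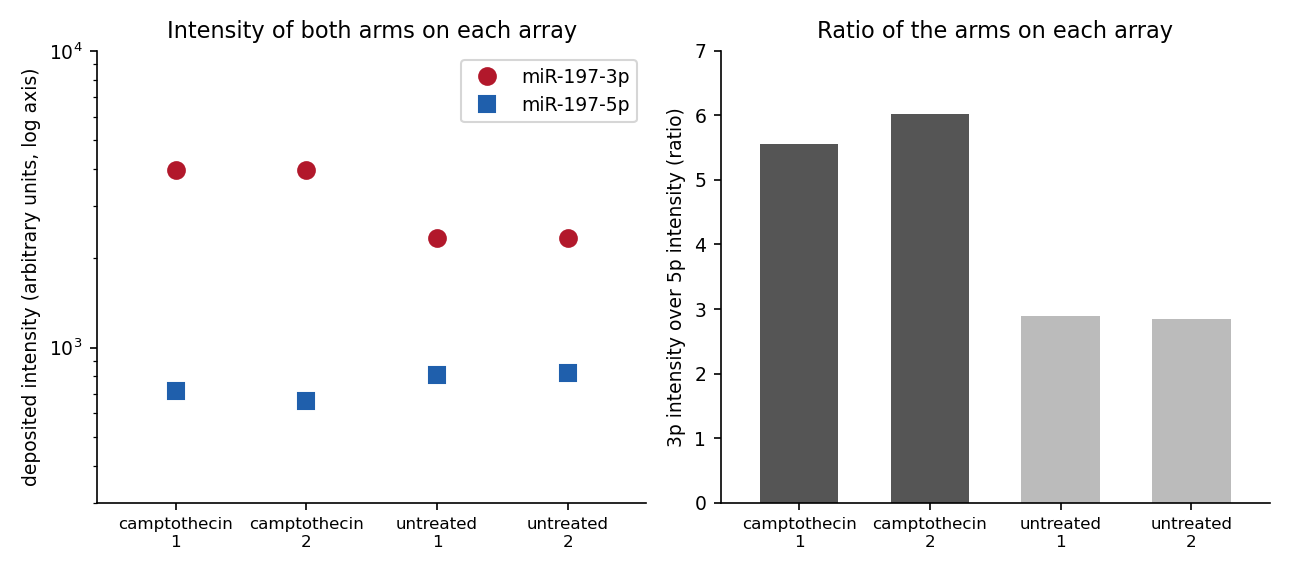
Left, deposited intensity (arbitrary units, log axis) of miR-197-3p (circles) and miR-197-5p (squares) on each of the 4 arrays; right, the 3p intensity divided by the 5p intensity on the same arrays, 1 bar per array. The 3p values are 3961 after camptothecin and 2331 without it, the 5p values lie slightly lower after camptothecin, and the ratio is above 5 on both camptothecin arrays and under 3 on both untreated arrays.

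Both strands were among the bright entries. By intensity rank, which mixes abundance with probe properties, miR-197-3p was in place 3 of 1308 on both camptothecin arrays and in place 15 on both untreated arrays. Its share of the summed intensity was 1.04% after camptothecin and 0.596% without it. After camptothecin its neighbours in rank were miR-766-3p above (mean 4716) and miR-4763-5p below (3448). Without it the neighbours were miR-4323 above (2357) and miR-1972 below (2166 ± 91.2 SD). None of these neighbours overlapped miR-197-3p in its values. miR-197-5p was in places 81 and 92 after camptothecin and 81 and 79 without it, so its rank hardly differed. Its neighbours, miR-1237-5p and miR-3162-3p after camptothecin and miR-4758-3p and miR-6126 without it, all overlapped it.

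The fold change of miR-197-3p was the 6th highest of 1308, while that of miR-197-5p was in place 102 from the bottom. These places depended on the scaling: miR-197-3p was in place 9 and miR-197-5p in place 361 from the bottom under quantile normalization of all 4 arrays, and in places 8 and 208 after normexp. Both strands were among the 327 entries above the 75th percentile of level, whose median log2 fold change was -0.12. Among these, 5 entries had a higher fold change than miR-197-3p and 94 a lower one than miR-197-5p. Across all entries 606 passed the test (46.3%; limma, Benjamini-Hochberg adjusted p under 0.05), 459 as higher (35.1%) and 147 as lower (11.2%). By values alone, both camptothecin arrays lay above both untreated arrays for 59.4% of entries and below them for 19.3%. With all 4 arrays quantile normalized together, 169 passed (12.9%), 90 as higher (6.88%) and 79 as lower (6.04%).

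**Figure D2:**
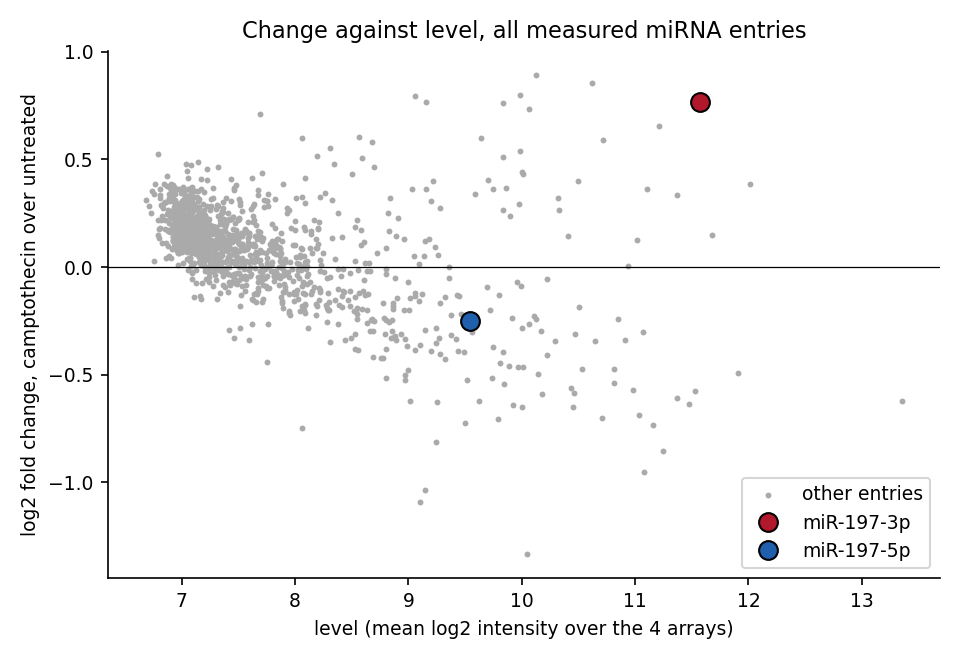
Log2 fold change (camptothecin over untreated) against level (mean log2 intensity over the 4 arrays) for 1308 entries, 1 point each. miR-197-3p (0.77) is among the highest points at its level, and miR-197-5p (-0.25) lies within the cloud of bright entries, whose median is -0.12.

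Both strands were measured for 231 hairpins, of which 230 were hairpins other than miR-197. The strands were called in opposite directions for 30 of these 230. The count over all 231 is 31 (13.4%), to which miR-197 adds 1 because it was picked for this contrast, so nothing is read from its own place in that count. Of the 30, 25 had the 3p strand higher and the 5p strand lower, and 5 the reverse. Another 23 hairpins had both strands called higher, 2 had both called lower, 109 had 1 strand called and 66 had none. By values alone, the strands of 26.4% of hairpins did not overlap between groups in opposite directions. The number of 31 was 7 under quantile normalization, 8 after normexp and 17 with arrays centred on the median. With 1 array left out it was 1 without camptothecin replicate 2 and 0 without any 1 of the other 3 (limma; 9 to 32 at an unadjusted p under 0.05). Without an untreated array, 1 entry passed in all.

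The change of the 3p over 5p ratio passed the test for 91 of 231 hairpins (39.4%; limma, adjusted p under 0.05), as higher for 63 (27.3%) and lower for 28 (12.1%). Without miR-197, which was picked for this contrast, 62 were higher and 28 lower. Its median over the other 230 hairpins was 0.081, with 5% of them below -0.43 and 5% above 0.71. miR-197 was in place 2 from the top as deposited, in place 4 under quantile normalization and after normexp, and in place 2 or 3 with 1 array left out. Among the hairpins with both strands at or above the median level, those next to it were miR-4728, from an intron of the growth factor receptor gene ERBB2, with 1.33 ± 0.095 SE (limma adjusted p = 7.21e-06), and miR-877, a mirtron cut from its host by splicing, with 1.00 ± 0.11 SE (limma adjusted p = 7.48e-05). miR-1237 (0.91), miR-3622a (0.88) and miR-3620 (0.88) followed. How much each strand contributed varied. miR-1237-3p rose by 0.21 and miR-1237-5p fell by 0.70, whereas miR-3622a-3p rose by 0.73 and miR-3622a-5p fell by 0.15, with miR-197 closer to the latter. At the other end stood miR-1285 (-0.63), miR-5585 (-0.57), miR-1909 (-0.56), miR-4725 (-0.49), miR-3173 (-0.49) and miR-4713 (-0.47), all past the test.

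The strands of miR-4728 differed in the same directions as those of miR-197. miR-4728-3p read 2332 and 1911 after camptothecin and 1202 and 1133 without it. miR-4728-5p read 1656 and 1414 after camptothecin and 2019 and 2231 without it. Neither strand overlapped between groups, and the 3p strand rose while the 5p strand fell. miR-4725 is the reverse case, in which the 5p strand rose (0.23) and the 3p strand fell (-0.27). miR-4725-3p read 204 and 191 after camptothecin and 242 and 232 without it, and miR-4725-5p read 511 and 526 against 442 and 445.

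**Figure D3:**
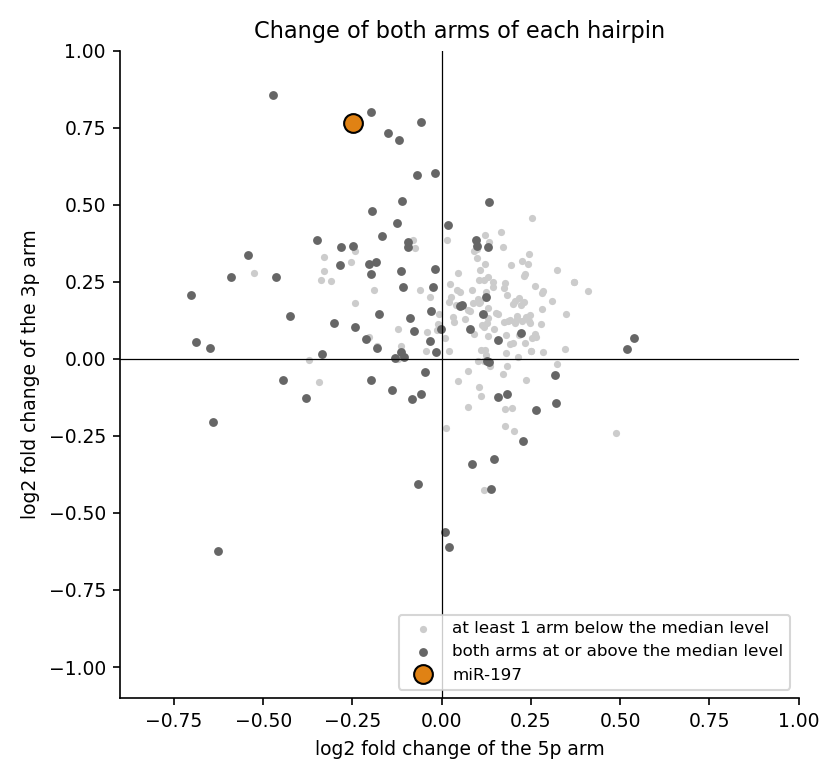
Log2 fold change (camptothecin over untreated) of the 3p strand against that of the 5p strand for 231 hairpins, 1 point each; dark points have both strands at or above the median level. miR-197 (3p 0.77, 5p -0.25) lies in the upper left, where the 3p strand is higher and the 5p strand lower, together with 25 other hairpins whose strands were both called that way.

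The strands of miR-197 shared their contrast in guanine share with those of several other hairpins. The strands of 3 further hairpins are shown beside miR-197 with every guanine in capitals. They were picked because the guanine-rich strand was the lower one after camptothecin in each. This was not so for all hairpins named above. In miR-4713 and miR-3173 the guanine-rich 3p strand changed by 0.067 and 0.031, while the 5p strand rose by 0.54 and 0.52.
miR-197-3p (higher): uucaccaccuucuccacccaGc
miR-197-5p (lower): cGGGuaGaGaGGGcaGuGGGaGG
miR-4728-3p (higher): cauGcuGaccucccuccuGccccaG
miR-4728-5p (lower): uGGGaGGGGaGaGGcaGcaaGca
miR-877-3p (higher): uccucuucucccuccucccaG
miR-877-5p (lower): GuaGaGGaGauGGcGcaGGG
miR-4725-5p (higher): aGacccuGcaGccuucccacc
miR-4725-3p (lower): uGGGGaaGGcGucaGuGucGGG
Of these, miR-877-5p did not pass the test (log2 fold change -0.20). Strands of a hairpin pair with each other, so a guanine-rich strand faces one rich in cytosine and uracil. Over the 196 hairpins with both sequences in RefSeq, the guanine share of the 5p strand and the cytosine and uracil share of the 3p strand had a Pearson's r of 0.74.

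The guanine share of miR-197-3p was 56.3 percentage points below that of miR-197-5p, the third most negative difference of the 196 hairpins. The change of the 3p over 5p ratio was related to this difference, with Pearson's r of -0.61 and Spearman's rho of -0.57 over the 196 hairpins, and -0.77 and -0.75 over the 64 with both strands at or above the median level. Hairpins share arrays and some share sequence, so these are descriptions without a test. Of the 46 of those 64 whose 3p strand had the lower guanine share, 41 had a ratio change above 0, with a median of 0.47. Of the 18 whose 3p strand had the higher share, 13 had a change below 0, with a median of -0.38. The 196, the 64 and the 46 include miR-197, which was picked for this contrast. A bound of 40 percentage points was chosen after the values were seen. Beyond it, 17 other hairpins had a 3p strand as poor in guanine relative to its partner. All 17 had a ratio change above 0 (0.17 to 1.00, median 0.62), and 15 passed the test as higher. Of all 231 hairpins 27.3% passed as higher, and the median ratio change over the 230 other than miR-197 was 0.081, also above 0. miR-197 lay just above the range of the 17.

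Of the 30 other hairpins with strands called in opposite directions, 28 had both sequences, and in 24 the strand with the lower guanine share was the higher one. The 4 that went the other way were miR-4524b, miR-488, miR-4745 and miR-1292, named after their values were seen, each with at least 1 strand below the median level. This does not set them apart, since some of the 24 also had such a strand, miR-92b and miR-363 among them. Of all 30, 18 had both strands at or above the median level.

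**Figure D4:**
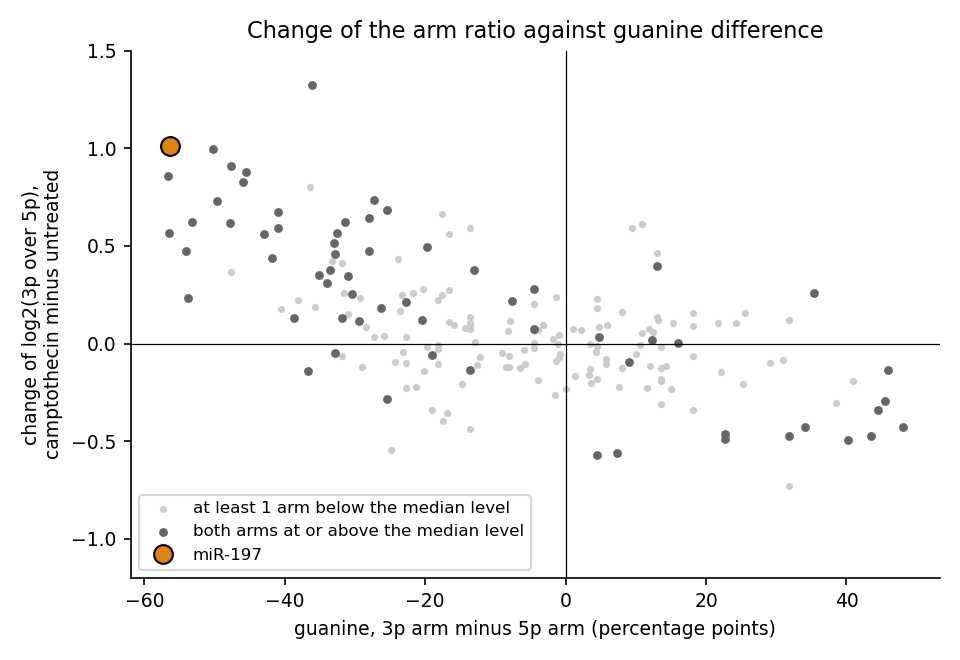
Change of the log2 ratio of 3p over 5p (camptothecin minus untreated) against the guanine share of the 3p strand minus that of the 5p strand (percentage points), for 196 hairpins, 1 point each; dark points have both strands at or above the median level. The points run from upper left to lower right, and miR-197 (-56.3 points, change 1.01) lies at the upper left end.

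The same relation was seen for single entries, without pairing of strands. These entries include the strands of the hairpins above and both miR-197 strands, so this is not a separate observation. Over the 1105 entries with a sequence, the guanine share and the log2 fold change had a Pearson's r of -0.55 and a Spearman's rho of -0.49, and over the 271 of these above the 75th percentile of level -0.65 and -0.68. Between the replicates of a group (replicate 1 over replicate 2) the r was 0.14 for the camptothecin arrays and -0.00054 for the untreated arrays. Between a camptothecin and an untreated array it ran from -0.56 to -0.49. Over hairpins the r of guanine difference and ratio was 0.18 and -0.059 within the groups, and from -0.63 to -0.55 between them. Replicates hold equal sorted values within a group while the groups do not, so these comparisons are not alike in processing. Guanine share was also related to level (r = 0.24 over all, 0.043 above the 75th percentile), and the part of level in this pattern was not tested.

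Above the 75th percentile of level, 37 other entries had under 10% guanine, as miR-197-3p has. Of these, 25 were called higher and 2 lower (limma, adjusted p under 0.05; 27 and 3 at an unadjusted p under 0.05). Among all 325 other entries at that level, 18.5% were called higher and 39.4% lower. For the 37, the median was 0.36 (log2 fold change) and the highest value 0.80. miR-197-3p (0.77) lay near the top of this group. Among those with at least 60% guanine, as miR-197-5p has, 0 of 29 others were called higher (limma; also 0 at an unadjusted p under 0.05) and 22 lower, with a median of -0.32. miR-197-5p (-0.25) lay nearer to 0 than this median.

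**Figure D5:**
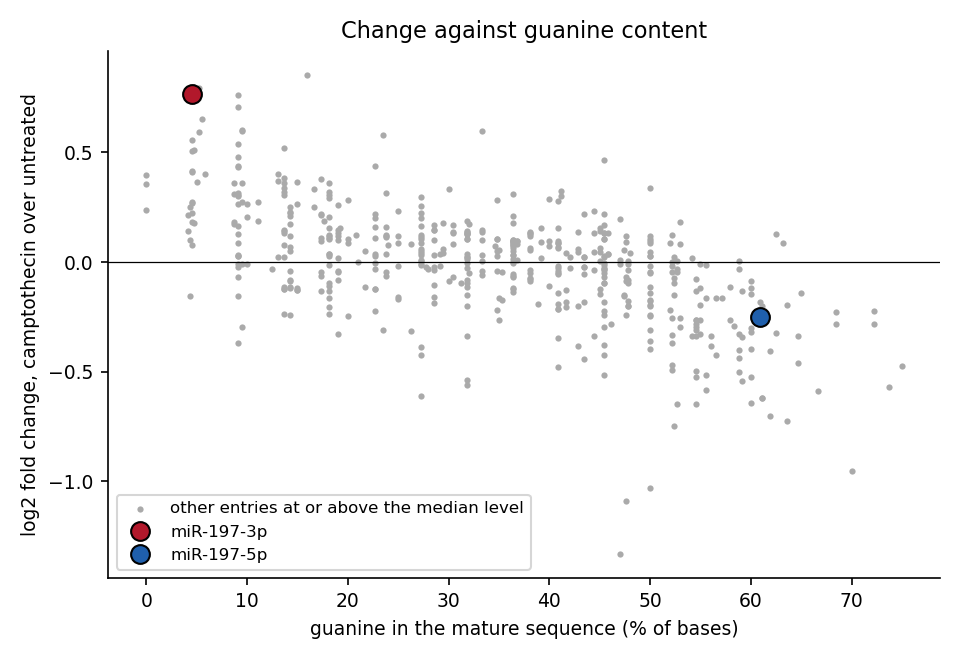
Log2 fold change (camptothecin over untreated) against the guanine share of the mature sequence (% of bases) for entries at or above the median level, 1 point each. Fold changes lie lower at higher guanine shares; miR-197-3p (4.55% guanine, 0.77) and miR-197-5p (60.9% guanine, -0.25) lie towards opposite ends.

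The 5 entries closest to miR-197-3p in base composition were miR-4701-5p, miR-4713-5p, miR-4723-3p, miR-6511b-3p and miR-1229-3p, and all 5 were called higher, with log2 fold changes from 0.13 (miR-4701-5p, limma adjusted p = 0.0454) to 0.54 (miR-4713-5p, limma adjusted p = 0.00146). Each had a lower fold change than miR-197-3p (0.77). The 5 closest to miR-197-5p were miR-5196-5p (-0.20), miR-6165 (-0.26), miR-4430 (-0.16), miR-6086 (-0.12) and miR-6088 (-0.32), of which the first 3 were called lower and the last 2 did not pass (limma adjusted p = 0.11 and 0.0641). All entries named here lay above the 75th percentile of level, where 18.5% of entries other than miR-197 were called higher and 39.4% lower.

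By pattern over the 4 arrays (Euclidean distance of log2 intensities, each entry centred on its own mean), the entries most like miR-197-3p were miR-877-3p (distance 0.081), miR-6511a-3p (0.087), miR-6716-3p (0.094), miR-4290 (0.11) and miR-1260a (0.13). All 5 had between 4.76% and 9.09% guanine. Under 10% guanine was found in 86 entries other than miR-197-3p, among the 1105 with a sequence. Of the 5, miR-1260a read 2890 and 3048 after camptothecin and 1841 and 1930 without it, with no overlap. The entries most like miR-197-5p were miR-4270 (0.032), miR-937-5p (0.034), miR-4446-3p (0.035), miR-4695-5p (0.039) and miR-5006-5p (0.041). The 4 of these with a RefSeq sequence had between 45.5% and 55.0% guanine. miR-4270 read 733 and 675 after camptothecin and 825 and 864 without it. With 4 arrays in 2 groups, likeness of pattern is little more than likeness of fold change. Fold change was itself related to guanine share, so the guanine shares of these entries are not a separate observation.

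Other miRNAs reported to act on PD-L1 or its regulators formed a list of 18 names, of which 9 were measured. Of these 9, 6 were called higher and 0 lower (limma; 8 and 0 at an unadjusted p under 0.05), with a median log2 fold change of 0.19 beside 0.11 over all entries. Of these 9, 7 lay below the median level, where 50.3% of all entries were called higher and 62.8% were higher at an unadjusted p under 0.05. The largest changes were those of miR-16-5p (0.34), miR-34a-5p (0.28), miR-200c-3p (0.28) and miR-200b-3p (0.20). miR-16-5p, which slows the cell cycle, read 152 and 135 after camptothecin and 114 and 112 without it, with no overlap. The lowest intensity of any entry was itself higher on the camptothecin arrays, 109 against 91.4 on the untreated arrays. How much of these changes reflects that difference was not tested. All 9 lay at or under the 54.6 percentile of level, and under quantile normalization of all 4 arrays 0 passed (limma; also 0 at an unadjusted p under 0.05). Of the 3 other miRNAs reported to act on TUSC2, 2 were measured, miR-93-5p (0.23) and miR-378a-3p (0.14), and both were called higher as deposited and not under quantile normalization. Both lay below the median level (29.9 and 37.5 percentiles), where 50.3% of all entries were called higher. miR-378a-3p is also a member of the liver-enriched list below. The response of the target genes was not measured on these arrays.

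Liver-enriched miRNAs were dim, and their level inside Hep3B cells was not measured on these arrays. The 4 miRNAs listed as liver-enriched lay between the 3.78 and 37.5 percentiles of level, with miR-122-5p, the main miRNA of hepatocytes, the dimmest of them (137 ± 2.48 after camptothecin, 105 ± 1.81 without, SD, n = 2). Of 5 miRNAs of blood cells, which serum could bring in, 3 were measured, between the 46.2 and 76.8 percentiles. Of these miR-486-5p read 264 ± 7.86 and 266 ± 8.16 and miR-150-5p was called higher (0.32), while miR-223-3p did not pass. All 4 liver-enriched miRNAs were called higher as deposited. They lay below the median level, where 50.3% of entries were called higher, beside 35.1% of all entries. Under quantile normalization of all 4 arrays none of the 4, and none of the 3 from blood cells, passed (limma; 1 of the 4 and 0 of the 3 at an unadjusted p under 0.05). Their part in the values of miR-197 was not tested.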

How the data were processed

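The deposited values are intensities on a linear scale, 1 per probe and array. Per the labels' protocols, the array target was Cy5-dyed RNA made by reverse transcription and amplification of small RNA. How arrays were scanned, background-corrected and normalized is not given in the sources used here. Both arrays of each group hold equal sorted values, as quantile normalization within groups gives, and all 4 share a 75th percentile of 250.15. This makes replicates look closer than they were, so p-values may be too small. The authors' deposited log2 ratios, per the file headers, equal the differences of log2 intensity within 5e-10 and served only for this check, while probe names came from the same table. Its other 4 columns of values per array were not used.

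Entries were compared on log2 intensity, with no pseudocount or further normalization, with limma 3.58.1 (R 4.3.3; lmFit, then eBayes with a trend on level). Tests were two-sided. P-values were adjusted by Benjamini-Hochberg across the 1308 entries, and 0.05 was the threshold. The log2 ratio of 3p over 5p was fitted likewise over all hairpins, with mean level as the trend. Hairpins are pairs of names that differ only in -3p and -5p, and the 12 joint names were left out. Level is the mean log2 intensity over 4 arrays. Standard errors are limma's. Sequences are from RefSeq (GRCh38.p14), matched by name for 1105 of 1308 entries. Python 3.11.15 and pandas 2.3.3 were used for the rest.

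Named entries follow a rule: both strands, the nearest entries in rank, the 5 nearest in pattern and in composition, the 6 hairpins at each end of the ratio change with both strands at or above the median level, up to 8 with opposite calls, and up to 4 members of each list. The 4 hairpins given as exceptions fall outside it. Members, lists and alternatives were chosen with earlier results of these data known. The guanine comparisons were added after the data had been seen.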

Additional observations from a re-analysis of the deposited data

How the results depend on the processing

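Both strands, picked for this direction, kept it in all settings run, though several of these could not change it. Filtering entries, blocking by replicate number or changing the variance model leaves both fold changes as they are. Leaving out 1 array cannot move that of miR-197-3p, whose values are equal within each group. The log2 fold change of miR-197-3p (0.77) was 0.84 with all 4 arrays quantile normalized together, 0.89 with scaling by the 75th percentile of the brighter entries (median level and above), 0.66 with arrays centred on the median and 0.92 after normexp with an offset of 50. That of miR-197-5p (-0.25) was -0.080, -0.12, -0.35 and -0.16 in that order, and from -0.31 to -0.19 with 1 array left out. The ratio change (1.01) was 0.92 under quantile normalization. The 606 calls (459 higher, 147 lower) became 169 (90 and 79), 975 (892 and 83), 330 (118 and 212) and 191 (106 and 85) in the order above, 267 (125 and 142) with entries under the median level left out, 190 (61 and 129) above the 75th percentile of level, and from 1 to 71 with 1 array left out. The 91 hairpins with a called ratio became 27 of 34 above the 75th percentile, where fewer are tested, and from 67 to 87 with 1 array left out. The 31 hairpins with opposite calls became 7 under quantile normalization, 17 with centring, 8 after normexp, 17 of 84 and 11 of 34 with dim entries left out, and from 0 to 1 with 1 array left out. Apart from the dim filters, where fewer are tested, and from arrays left out, the cause was not tested. Leaving out 1 array assumes that the lone array of its group varies like the other group. With the replicate number as a block, these counts were 550, 82 and 23. Arrays of the same number deviated from their group means with a correlation of -0.072 over entries, so the numbers were not taken to pair arrays. Correlations with guanine share kept their sign under quantile normalization (-0.48 over entries, -0.67 over hairpins) and normexp (-0.51 and -0.64). The height of probes over background is unknown.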

Other observations

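Other bases showed weaker relations with the log2 fold change over the 1105 entries with a sequence, described without a test. Pearson's r was 0.41 for the uracil share, 0.20 for cytosine and 0.10 for adenine, beside -0.55 for guanine. Above the 75th percentile of level cytosine was at 0.45 and uracil at 0.43. miR-197-3p combines 54.5% cytosine with 22.7% uracil.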
